A study of Mus musculus with 8 samples.

Results

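The cells described here are the pericytes of the mouse hippocampus, taken from 2 single-cell RNA libraries by the genes they express. A barcode was counted as a pericyte when it had at least 500 detected genes, under 15% mitochondrial UMIs (unique molecular identifiers, each standing for 1 captured transcript), at least 1 UMI for 3 or more of the 7 genes Rgs5, Higd1b, Vtn, Ndufa4l2, Kcnj8, Abcc9 and Atp13a5, and at most 1 UMI summed over Cldn5, Ly6c1, Mog and Aqp4. Those 4 genes mark endothelial cells (Cldn5, Ly6c1), oligodendrocytes (Mog) and astrocytes (Aqp4). In all, 376 of 12954 cells that passed the first 2 filters were members, 207 of 7105 in one library and 169 of 5849 in the other. The first library came from Foxp3-DTR- mice and the second from Foxp3-DTR+ mice, called DTRneg and DTRpos below. DTR is the diphtheria toxin receptor. In mice that carry it in cells expressing Foxp3, the transcription factor of regulatory T cells, the toxin removes those cells. Every mouse of both groups received diphtheria toxin, so the genotype is what separates the libraries, and the study asked how the hippocampal cells differ after loss of regulatory T cells. Each library pooled 2 perfused mice with no label tying a cell to a mouse, and the cells had been sorted as CD45- Thy1-. The labels give the sorted cells as "Neurons and glia" and state no age. With 1 library a group no comparison between the groups could be tested, and every interval below is a 95% interval that covers counting error only.

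Pericytes are mural cells that lie in the basement membrane of capillaries and are wrapped around the endothelial tube. They depend on platelet-derived growth factor B from the endothelium, which they sense through the receptor Pdgfrb, and in the brain they take part in forming the blood-brain barrier and in setting capillary diameter. Mural cells of arterioles, the smooth muscle cells, carry far more of the contractile proteins alpha smooth muscle actin (Acta2), transgelin (Tagln) and smooth muscle myosin heavy chain (Myh11), and the 2 kinds grade into each other along the vessel.

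The 7 genes used for selection include both parts of the ATP-sensitive potassium channel of vascular cells, the pore Kcnj8 and the sulfonylurea receptor Abcc9. The 2 genes lie beside each other on the minus strand of chromosome 6, in the GENCODE M21 annotation of GRCm38 at chr6:142564837-142571614 (Kcnj8) and chr6:142587862-142702315 (Abcc9), with 16247 bases between them. Vtn encodes vitronectin, a secreted adhesion protein of plasma and matrix. The RefSeq promoter table for GRCm38.p6 held 5 of the 7 genes. The sequence before the start site is printed for the channel pair, because these 2 neighbours encode 1 channel, and for Vtn, the member with the most UMIs. Each run reads 5' to 3' on the gene's own strand, and capitals mark the letters TGGGAA, the core bound by the DNA-binding partner of Notch receptors.
Kcnj8, chr6:142571615-142571864, minus strand: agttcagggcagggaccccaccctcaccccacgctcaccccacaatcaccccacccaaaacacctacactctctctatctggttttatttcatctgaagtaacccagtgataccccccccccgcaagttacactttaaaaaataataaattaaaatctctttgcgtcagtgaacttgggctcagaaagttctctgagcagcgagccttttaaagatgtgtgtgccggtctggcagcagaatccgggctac
Abcc9, chr6:142702316-142702524, minus strand: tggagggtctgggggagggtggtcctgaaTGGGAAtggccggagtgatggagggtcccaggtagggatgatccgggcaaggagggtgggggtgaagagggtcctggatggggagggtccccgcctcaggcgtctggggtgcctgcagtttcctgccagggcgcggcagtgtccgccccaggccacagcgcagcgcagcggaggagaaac
Vtn, chr11:78498870-78499090, plus strand: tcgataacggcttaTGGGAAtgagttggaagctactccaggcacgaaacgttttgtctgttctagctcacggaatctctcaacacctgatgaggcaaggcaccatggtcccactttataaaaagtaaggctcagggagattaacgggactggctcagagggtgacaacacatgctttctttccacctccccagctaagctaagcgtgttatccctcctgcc
The 3 windows differed in base composition, with a GC content of 49.2% before Kcnj8, 68.4% before Abcc9 and 49.8% before Vtn. The printed runs of Abcc9 and Vtn hold 209 and 221 bases, because they end where the GENCODE gene begins, before the RefSeq start. Searched on both strands over the full 250 bases before the RefSeq start, TGGGAA occurred for 2 of the 5 selecting genes, Abcc9 and Vtn. It occurred for 5 of the 15 genes with a promoter among the 20 most raised in the pericytes. It also occurred for 23.2% of the genes compared below that had a promoter. A gene counted if any of its promoters held the letters. Of the 32851 single promoters in the table, a different measure, 21.6% held them. The letters ACGTG, the core bound by hypoxia-inducible factors, were found for 0 of the 5 selecting genes and for 1 of the 15 most raised genes. They were found for 27.6% of the genes compared that had a promoter. By the different measure of single promoters, 16.6% of all held them. These are matches of letters and show no binding.

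The 2 libraries held 8220 and 6548 barcodes with 53484704 and 35814655 UMIs. The DTRpos library was shallower per cell, with a median of 4579 UMIs per passing cell against 6116. The libraries shared 18 barcodes, of which 0 were pericytes. The pericytes held fewer UMIs than the rest. Their median was 2078 UMIs and 1138 genes in DTRneg and 1565 UMIs and 932 genes in DTRpos, against 6225 and 4680.5 UMIs in all other cells. Their summed UMIs were 478044 and 306688, and a level below is given in counts per 1000000 UMIs of these sums (CPM). The median mitochondrial share was 2.06% and 2.11%. Scrublet, a doublet caller, marked 242 of 7105 and 158 of 5849 cells, among them 3 pericytes in each library, and these were kept. Leaving them out is among the alternatives.

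The values that chose the cells are given as a description. All 7 selecting genes had a UMI in 103 of 207 DTRneg cells (49.8%) and in 83 of 169 DTRpos cells (49.1%), while 14 and 9 cells had just 3. Just outside the rule, 22 and 20 cells with at most 1 UMI of the excluded genes had 2 selecting genes, and 26 and 15 cells with 3 or more selecting genes had over 1 UMI of the excluded ones. A further 9 and 14 barcodes failed on the number of genes and 2 and 1 on mitochondrial share. Pdgfrb, which the rule did not use, had a UMI in 7 of 14 and 4 of 9 cells with 3 selecting genes and in 8 of 22 and 12 of 20 cells with 2.

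Vtn was at 22247 and 25603 CPM in the pericytes of DTRneg and DTRpos and at 56.6 and 48.9 CPM in all other passing cells. Rgs5, which shortens signalling through G protein-coupled receptors, was at 4265 and 3636 CPM, and at 58 and 56.1 CPM in endothelial cells. Ndufa4l2, a mitochondrial protein induced in low oxygen, was at 2014 and 2472 CPM, and Higd1b, of the hypoxia-induced gene domain family, at 1943 and 2654 CPM. Kcnj8 was at 1236 and 1715 CPM, Abcc9 at 927 and 1089 CPM and Atp13a5, a P5-type ATPase, at 1084 and 1252 CPM. In endothelial cells the highest of the last 5 genes was Ndufa4l2, at 6.06 and 13.7 CPM. Endothelial cells here, like the fibroblasts and oligodendrocytes named below, are cells with 3 or more of 7 genes of that class under a rule of the same form, which for all 3 classes allowed at most 1 UMI summed over a set that includes Kcnj8 and Abcc9. The 4 excluded genes had between 0 and 10 UMIs in the pericytes of either library, as the rule required.

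Genes that the rule did not use and that are known for pericytes were also raised in these cells. Of 33 genes on a list of pericyte identity, 25 reached 100 CPM in the pericytes of both libraries, and all 25 were at least 4-fold above all other cells in both. Among all genes at that level, 326 of 1605 (20.3%) were. Since the cells were chosen by expression, this is a description and no test. Pdgfrb was at 1132 and 1288 CPM, against 0.866 and 2.74 in endothelial cells and 243 and 202 in fibroblasts. Cox4i2, the isoform of a cytochrome c oxidase subunit found in oxygen-sensing cells, was at 1269.8 and 1369 CPM and was at 0 in fibroblasts. Notch3, the Notch receptor of mural cells, was at 391 and 417 CPM, and P2ry14, a receptor for UDP-sugars, at 724 and 799 CPM. Ebf1, a transcription factor, was at 694 and 672 CPM but also at 338 and 330.0 in endothelial cells. Slc6a20a, a transporter of proline and related amino acids, was at 615 and 551 CPM and no lower in fibroblasts, at 744 and 710.1. Cspg4, the proteoglycan NG2, was at 333 and 391 CPM, against 43.3 and 71 in all other cells, which include oligodendrocyte precursors that also make it.

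**Figure D1:**
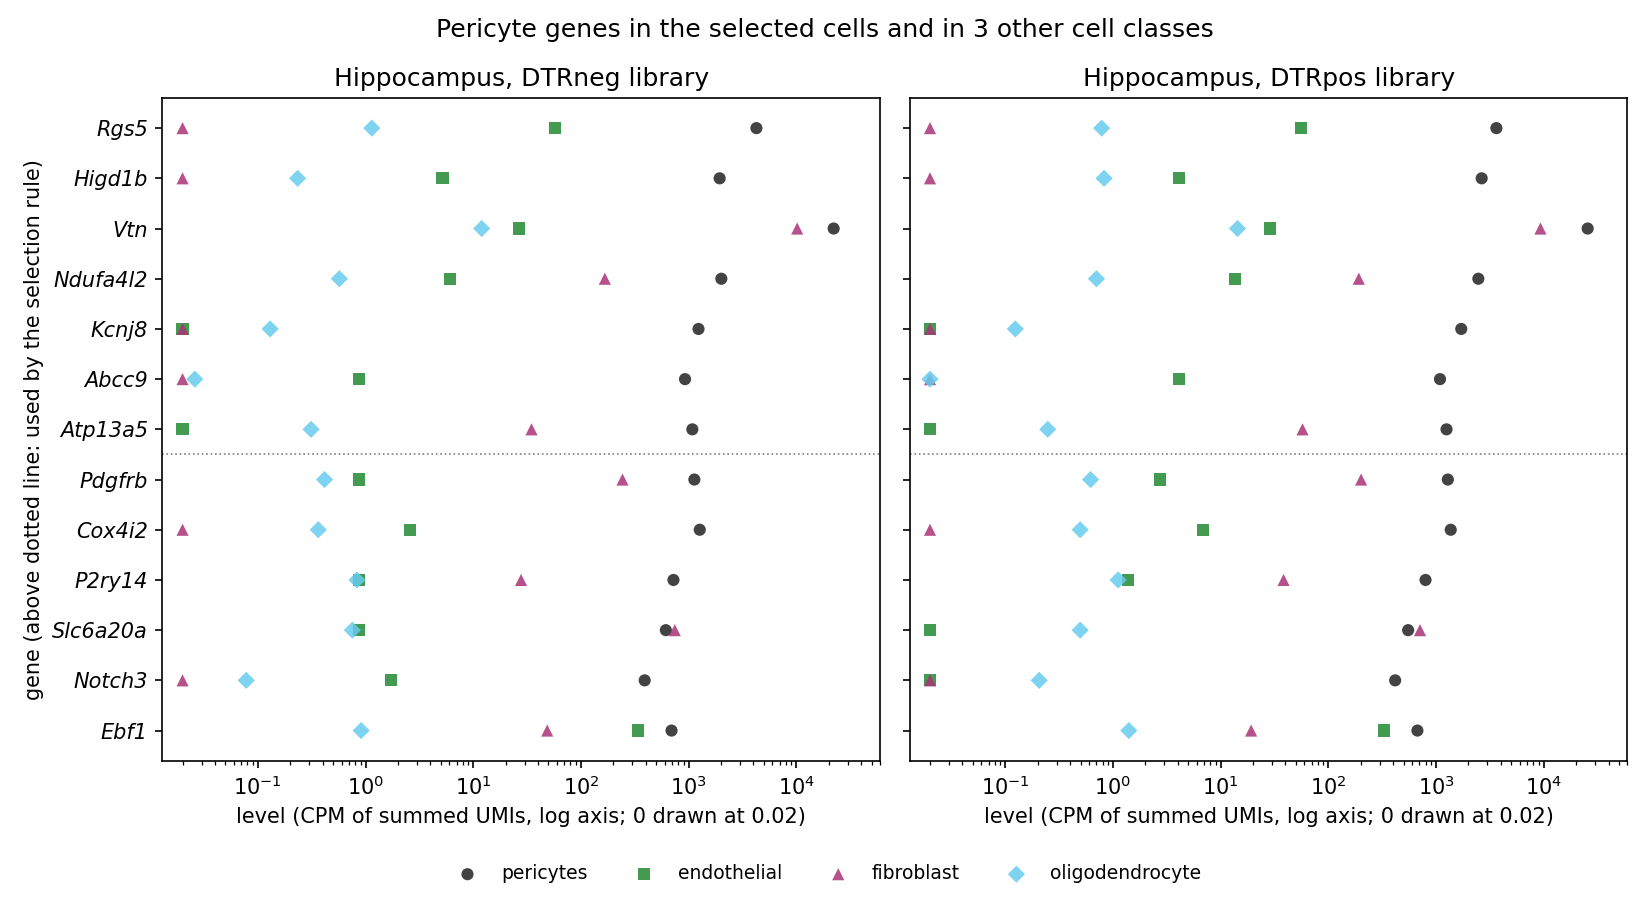
Level of the 7 selecting genes (above the dotted line) and of pericyte genes outside the rule in the pericytes and in endothelial cells, fibroblasts and oligodendrocytes, in CPM of summed UMIs on a log axis, with 0 drawn at 0.02, 1 panel a library. Vtn in the fibroblasts, at 10198 and 9327 CPM, stands closest to the pericytes among the selecting genes, and Slc6a20a in the fibroblasts is no lower than in the pericytes.

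Vtn, Ndufa4l2 and Atp13a5 were not particular to the pericytes. In fibroblasts, which form the sheath of larger vessels and the meninges, Vtn was at 10198 and 9327 CPM, Ndufa4l2 at 167 and 192 CPM and Atp13a5 at 34.8 and 57.6 CPM, whereas Rgs5 and Higd1b had 0 UMIs in the fibroblasts. A count of 0 (limit 3 UMIs of the total) allows 20.9 CPM in DTRneg and 28.8 CPM in DTRpos. Those 46 and 36 fibroblasts are the ones that are no members. A further 10 and 6 members met the fibroblast rule as well. Of these, 8 of 10 and 6 of 6 had no Rgs5 UMI, 2 of 10 and 0 of 6 had Higd1b, and all had Vtn. Ndufa4l2 had a UMI in 9 of 10 and 6 of 6 and Atp13a5 in 6 of 10 and 4 of 6. For these cells the data go against the pericyte label. In all, 13 and 8 members had no Rgs5 UMI. Dcn, the matrix proteoglycan decorin that marks fibroblasts, was detected in 11 and 7 of them, at 5701 and 6686 CPM.

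Over the whole fibroblast list of 12 genes, 51 and 29 pericytes (24.6 and 17.2%) had a UMI for 3 or more. The summed level of that list was 3385 and 3045 CPM over all pericytes and ranged from 0 to 119 and from 0 to 79 UMIs a cell. It was 9571 and 8796 CPM in the 24 and 14 cells with 3 or 4 selecting genes and 2377 and 2451 CPM in those with all 7. Collagen I (Col1a1) and lumican (Lum) made the split plainest. In cells with 3 or 4 selecting genes Col1a1 was at 639 and 628 CPM and Lum at 333 and 329 CPM, and in cells with all 7 both were at 0 in both libraries. Mgp, matrix Gla protein, was the most frequent gene of the list, in 60.9% and 52.1% of all pericytes, and Col1a2 was in 32.9% and 25.4%.

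**Figure D2:**
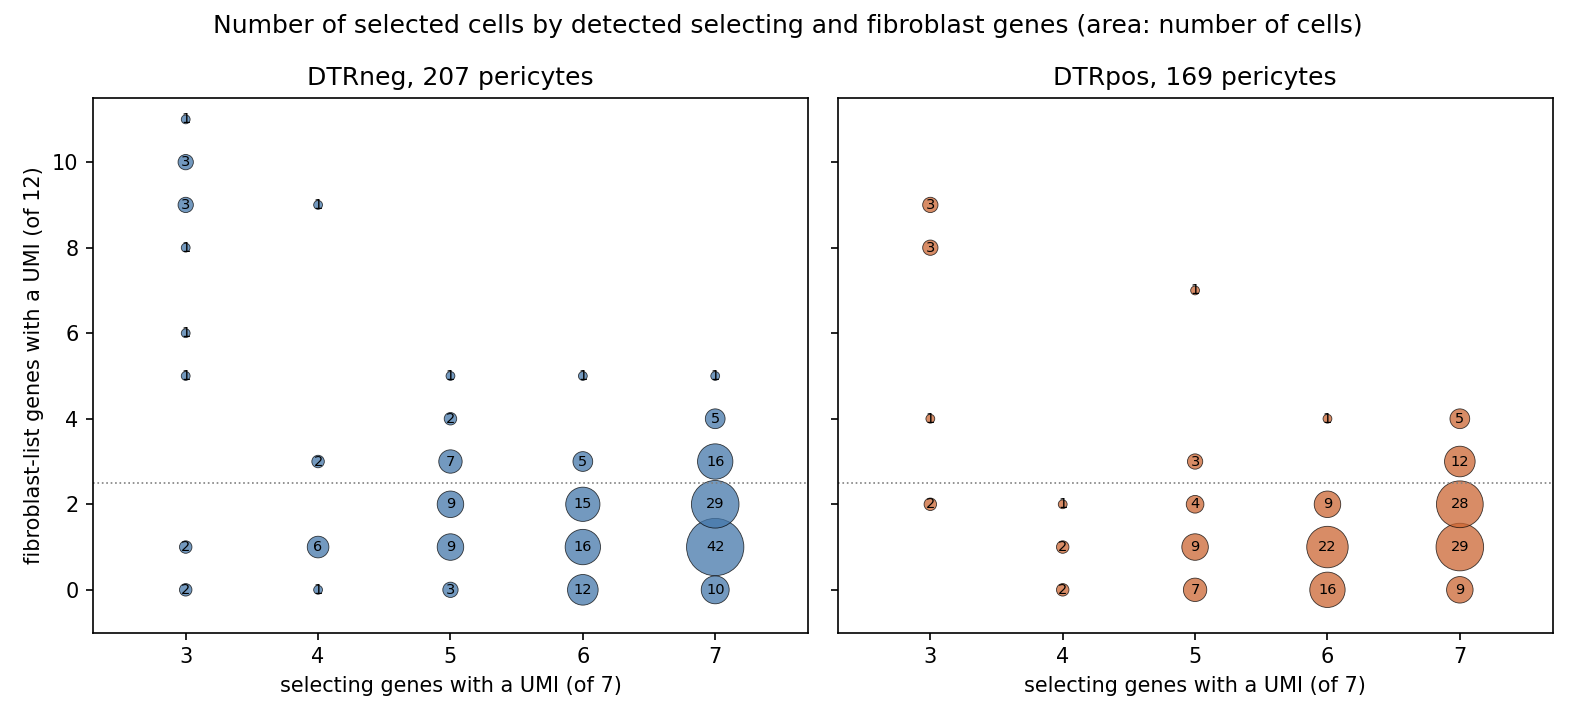
Number of pericytes by how many of the 7 selecting genes (x axis) and of the 12 fibroblast genes (y axis) had a UMI, with the area and the printed number giving the cells, 1 panel a library. Most cells lie at the lower right, with 6 or 7 selecting genes and 0 to 2 fibroblast genes, and a small set with 3 selecting genes carries 8 or more fibroblast genes.

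A second set carried contractile genes. At least 2 of Acta2, Tagln and Myh11 had a UMI in 16 and 5 cells, which is 7.73 and 2.96% of the pericytes. In these cells Acta2 was at 4251 and 1080.4 CPM and Tagln at 2269 and 1473 CPM. They kept Rgs5, at 3917 and 2357 CPM, and Pdgfrb, at 788 and 1080.4 CPM. Their channel and capillary markers stood lower than in the cells with none of the 3 genes: Abcc9 was at 143 and 295 against 1024 and 1169 CPM, Atp13a5 at 239 and 295 against 1189.6 and 1352 and Vtn at 9983 and 12867 against 23659.5 and 26639. Their dissociation and immediate early genes, a list of 32 genes such as Fos that cells raise within minutes of being disturbed, summed to 55334 and 62469 CPM, against 23539.8 and 20623 in the others. The contractile and the fibroblast set overlapped in 7 and 3 cells, and 147 and 138 cells (71 and 81.7%) belonged to neither. In these cells Rgs5 was detected in 145 and 138 and Col1a1 and Lum in 0. Genes of the fibroblast list, Col1a1 and Lum among them, had chosen these cells, so their absence is a description.

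Markers of other cell types ranged from near 0 to a level above that of the rest. Of 10 microglial and immune genes, 8 were at 0 in the pericytes of each library, C1qa, C1qb, C1qc, Csf1r, Ptprc, Cx3cr1 and P2ry12 in both. The sort had removed CD45+ cells. The 14 endothelial genes summed to 673.6 and 671.7 CPM, close to the 721.3 and 682.7 CPM of all other cells, and 17 and 8 pericytes had 3 or more of them. The 12 oligodendrocyte genes summed to 3232 and 3316 CPM against 60430 and 54468 CPM in all other cells, with a median of 2 UMIs a pericyte in each library, and 25.1% and 33.1% of the pericytes had 3 or more of them. The 12 astrocyte genes summed to 6786 and 7692 CPM, above the 4345 and 6215 CPM of all other cells, with medians of 13 and 11 UMIs a pericyte, and 15.5% and 16.6% of the pericytes had 3 or more. Sparcl1, a secreted matrix protein on that list, had a UMI in 90.8% and 88.8% of the pericytes, at 2123 and 2357 CPM against 543 and 764 in all other cells. The glutamate transporter Slc1a2 was in 7.25% and 5.33% and below the other cells, at 161 and 124 against 630.1 and 997 CPM, and the gap junction protein Gja1 was at 54.4 and 26.1 against 161 and 257 CPM. Gfap, the astrocyte filament protein, had 5 UMIs in DTRneg and 0 in DTRpos. The 10 oligodendrocyte precursor genes summed to 726 and 864 CPM, against 2450 and 3136 CPM in all other cells. The richest cell held 108 of their 347 UMIs in DTRneg and 117 of 265 in DTRpos, and 4 and 3 pericytes had 3 or more. The 10 neuronal genes summed to 502 and 551 CPM, above the 268 and 283 CPM of all other cells. Their richest cells held 24 and 50 UMIs, and 2 pericytes in each library had 3 or more.

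Among the 20 genes outside the rule with the largest excess over all other cells, taken as the smaller of the 2 libraries' ratios, were Nts, Aspn, Rem1, Pla1a, Gm13861, Adap2os, Nodal, Enpep, Plxdc1, Tbx3os1, Rgs4, Atp2a3, Art3, Slc38a11, Gper1, Gpc3, Morrbid, Cox4i2 and Tbxa2r. The values that ranked them come from the selected cells and are a description. Aspn, the matrix protein asporin, was at 646 and 600.0 CPM with a UMI in 58% and 50.3% of pericytes, and at 0.52 and 0.402 CPM in all other cells. Art3, an ADP-ribosyltransferase family member, was at 533 and 463 CPM, and Rgs4, another regulator of G protein signalling, at 1054 and 1102 CPM. Gper1, a G protein-coupled receptor for estrogen, was at 383 and 522 CPM and Tbxa2r, the thromboxane receptor, at 297 and 365 CPM. Enpep, aminopeptidase A, was at 134 and 114 CPM in 23.2% and 17.8% of cells.

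Nts, the precursor of the peptide neurotensin, had the largest excess but was patchy. It was at 134 and 205 CPM in the pericytes and at 0.0385 and 0.115 CPM elsewhere, and it came from 23 and 32 cells, 11.1% and 18.9% of the pericytes. The most any cell held was 14 and 5 Nts UMIs. Nodal, a ligand of the TGF-beta family best known from the early embryo, was at 184 and 248 CPM and had a UMI in 30% and 30.2% of pericytes. It was at 0.231 and 0.172 CPM in all other cells and at 0 in endothelial cells. Adap2os was at 197 and 349 CPM. It is annotated antisense to Adap2, which was itself at 259 and 310 CPM in the pericytes and at 0.616 and 0.287 CPM elsewhere. Tbx3os1 lies likewise beside Tbx3, which was at 79.5 and 88.0 CPM. Whether the counting used strand is not given in the sources used here, so reads of a gene and its antisense partner cannot be told apart.

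Several pericyte genes have a close relative. The split within the pair differed between the pericytes and the rest for most pairs but not for all 9. The rule itself used Ndufa4l2, Higd1b, Kcnj8, Abcc9 and Rgs5, so their shares in the pericytes are a description and no test. Ndufa4l2 made up 93.4% (91.7 to 94.8) and 95.6% (93.9 to 96.9) of the UMIs of Ndufa4l2 and Ndufa4 in the pericytes of DTRneg and DTRpos, and 0.442% (0.371 to 0.523) and 0.427% (0.339 to 0.531) in all other cells. Ndufa4 itself, a subunit of cytochrome c oxidase, was lower in the pericytes, at 142 and 114 CPM against 585 and 535. For a second subunit of the same complex, Cox4i2 made up 57.9% (54.8 to 60.9) and 53.2% (49.6 to 56.7) of the pair with Cox4i1, and 0.2% (0.169 to 0.236) and 0.17% (0.137 to 0.208) elsewhere. Cox4i1 stayed at 925 and 1206 CPM in the pericytes, so the 2 isoforms were present side by side. Higd1b made up 94.7% (93.1 to 96) and 95.2% (93.6 to 96.5) of the pair with Higd1a. Notch3 took 89.5% (84.5 to 93.3) and 95.5% (90.5 to 98.3) of the pair with Notch2, and 4.11% (2.97 to 5.51) and 8.12% (5.96 to 10.7) elsewhere. Pdgfrb took 90.9% (88.3 to 93.1) and 91.4% (88.4 to 93.9) of the pair with Pdgfra, and 24.1% (17.4 to 31.9) and 28% (18.2 to 39.6) in fibroblasts. The pair of Rgs5 and Rgs4 did not differ beyond counting error, with Rgs5 at 80.2% (78.6 to 81.7) and 76.7% (74.5 to 78.9) in the pericytes and 81% (77.2 to 84.5) and 74% (67.1 to 80) elsewhere. For Abcc9 and Abcc8 the share of Abcc9 was 100% (99.2 to 100) and 100% (98.9 to 100) in the pericytes and 98.5% (92.1 to 100) and 100% (83.2 to 100) elsewhere. The pancreatic and neuronal counterparts of the channel, Kcnj11 and Abcc8, had 0 UMIs in the pericytes of both libraries, which allows a level of up to 6.28 and 9.78 CPM (3 UMIs of the total).

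The share of pericytes among passing cells was the same in the 2 libraries within counting error, 2.91% (2.53 to 3.33, exact binomial interval) in DTRneg and 2.89% (2.48 to 3.35) in DTRpos. The log2 ratio of the shares, DTRpos over DTRneg, was -0.01. That value rested on the filter on detected genes. With at least 1000 genes 144 and 65 cells remained (2.28% and 1.31%), a log2 ratio of -0.80. With every cell thinned to 2000 UMIs 108 and 41 remained (1.71% and 0.830%), a log2 ratio of -1.04. Both settings leave out shallow cells, and the medians of the DTRpos pericytes, 932 genes and 1565 UMIs, lie below both limits. Thinned to 1000 UMIs, an alternative chosen after seeing the data, 191 and 151 remained and the log2 ratio was -0.05. In dissociated tissue fewer cells of a type and poorer recovery of the type cannot be told apart.

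Few genes differed in level between the pericytes of the 2 libraries. Of 2003 genes at 100 CPM or more in the higher library, 32 were past 2-fold (1.6%), 10 of them higher in DTRpos (0.499%) and 22 lower (1.1%). The log2 ratio was above 0 for 55.4% of genes, its median was 0.05, and its counting interval lay above 0 for 8.74% and below 0 for 7.09%. Ratios below are log2 ratios of CPM, DTRpos over DTRneg, with the counting interval in brackets. None of the 7 selecting genes was past 2-fold. Kcnj8 had a ratio of 0.47 (0.30 to 0.64), Higd1b of 0.45 (0.31 to 0.59), Ndufa4l2 of 0.30 (0.16 to 0.43), Abcc9 of 0.23 (0.02 to 0.44), Atp13a5 of 0.21 (0.01 to 0.40) and Vtn of 0.20 (0.16 to 0.24). Rgs5 stood alone below 0, at -0.23 (-0.34 to -0.12). These 7 genes chose the cells, and the DTRpos pericytes held fewer UMIs a cell, so these ratios are a description.

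**Figure D3:**
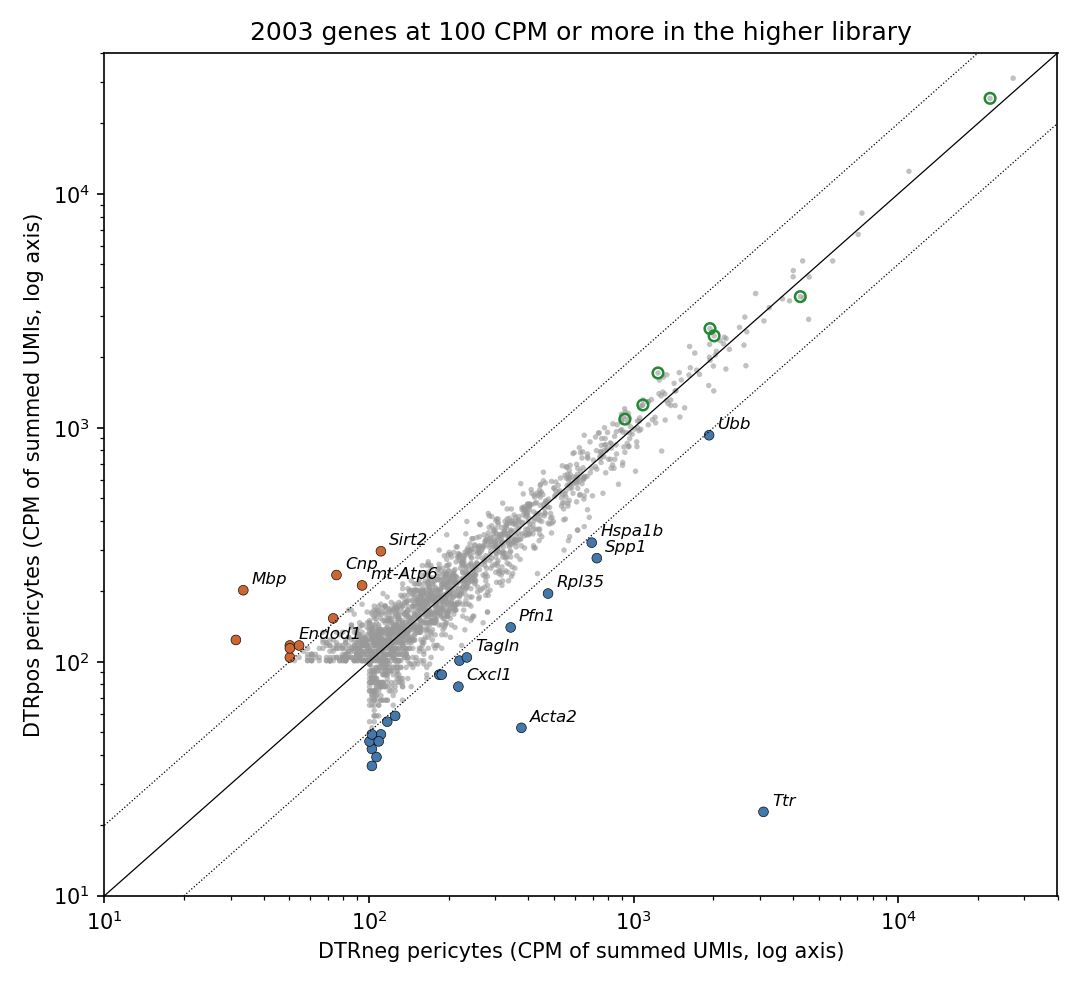
Level of 2003 genes in the DTRneg (x axis) and DTRpos (y axis) pericytes, in CPM of summed UMIs on log axes. The solid line is equality, the dotted lines are 2-fold, filled points past them are the 10 genes higher (orange) and 22 lower (blue) in DTRpos, and green rings are the 7 selecting genes, all between the dotted lines.

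The largest ratio rested mostly on 1 cell. Ttr, transthyretin, the main product of the choroid plexus, was at 3096 and 22.8 CPM with a ratio of -7.08 (-8.40 to -6.04). A single DTRneg cell held 1417 of the 1480 UMIs (95.7%). That cell had 3497 UMIs in all, 1455 of them from the choroid plexus list, and just 3 of the selecting genes, with 3 UMIs of Rgs5 and 7 of Vtn. Without that cell Ttr was at 133 and 22.8 CPM, from 63 and 7 UMIs, and its ratio was -2.54 (-3.91 to -1.41), still past 2-fold. A Ttr UMI was present in 50 and 6 pericytes in all, 24.2% and 3.55%, and in 23.3% and 6.84% of endothelial cells, where Ttr was at 3249.9 and 37 CPM. In all other cells Ttr was at 6459 and 1649 CPM with a ratio of -1.97 (-1.98 to -1.96). In oligodendrocytes Ttr was at 907 and 470 CPM with -0.95 (-0.98 to -0.92). The whole list of 8 choroid plexus genes summed to 3215 and 55.4 CPM in the pericytes and to 7944 and 3018 CPM in all other cells, with Kl and Prlr at 0 in the DTRneg pericytes.

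Genes of myelin led the other side, and 1 cell held a large share of their UMIs. Mbp, myelin basic protein, was at 33.5 and 202 CPM with a ratio of 2.59 (1.78 to 3.49), Cnp at 75.3 and 235 CPM with 1.64 (1.04 to 2.26) and Sirt2, a deacetylase abundant in myelin, at 111 and 297 CPM with 1.42 (0.92 to 1.94). A single DTRpos cell of 5745 UMIs held 38 of 62 Mbp UMIs, 37 of 72 Cnp UMIs, 56 of 91 Sirt2 UMIs and 24 of 38 UMIs of S100b. All 7 selecting genes had UMIs in that cell, 67 of them from Vtn. In all other cells Mbp had a ratio of -0.12, Cnp of -0.00 and Sirt2 of -0.04. Without that cell Mbp was at 1.25 (0.28 to 2.26), from 16 and 24 UMIs and still past 2-fold, Cnp at 0.63 (-0.09 to 1.34) and Sirt2 at 0.07 (-0.59 to 0.71).

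A group of genes differed between the libraries to a like extent in the pericytes, in all other cells together and in the endothelial cells. Ubb, one of the polyubiquitin genes, was at 1929 and 929 CPM in the pericytes with a ratio of -1.05 (-1.25 to -0.86), and its ratio was -1.16 in all other cells and -1.11 in endothelial cells. Rpl35, a ribosomal protein, had a ratio of -1.28 (-1.71 to -0.86), beside -0.98 in other cells and -0.84 in endothelial cells. The same held for Rps28, at -0.86 (-1.22 to -0.52) beside -0.92 and -0.91, and for the actin-binding protein Pfn1, at -1.29 (-1.81 to -0.80) beside -0.85 and -0.83. The mitochondrial gene mt-Atp6 stood the other way, at 1.17 (0.60 to 1.75) beside 1.01 and 1.22. In the few fibroblasts Ubb was at -0.40 (-0.79 to -0.01) and Rps28 at -0.32 (-0.85 to 0.20), nearer to 0 than in the pericytes. Reads of ribosomal proteins can be shared with their pseudogenes, and mt-Atp6 overlaps mt-Atp8, so these counts are uncertain. These are ratios between whole libraries, and a library and its genotype cannot be told apart.

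The other genes past 2-fold were low for the most part, and their ratios were smaller in all other cells together. Hivep2, a zinc finger transcription factor, was at 103 and 35.9 CPM with a ratio of -1.51 (-2.61 to -0.55), from 44 and 10 cells, beside -0.12 in other cells and -0.60 in endothelial cells. Mettl9, a histidine methyltransferase, had -1.45 (-2.49 to -0.52), beside -0.15 and -0.58. Rasl11a, a small GTPase, was at 220 and 101 CPM with -1.12 (-1.75 to -0.53), beside -0.49 in other cells and -0.17 in endothelial cells. In the oligodendrocytes its ratio was -1.17 (-2.14 to -0.29), but it was scarcely detected there, at 1.30 and 0.579 CPM. On the higher side Endod1 was at 50.2 and 117 CPM with 1.23 (0.44 to 2.03), Ing1, a chromatin reader, at 73.2 and 153 CPM with 1.07 (0.40 to 1.74), Pkd2, the channel polycystin 2, at 54.4 and 117 CPM with 1.11 (0.34 to 1.90), and the histone gene H4c4 at 50.2 and 114 CPM with 1.18 (lower bound 0.39). Histone H4 genes are near copies of each other and their reads are uncertain. Cped1 and Ppfibp2 did not reach 2-fold, at 0.76 (0.38 to 1.15) and 0.96 (0.33 to 1.58), and had the smaller ratios 0.34 and 0.12 in other cells. Among the enriched genes Adap2os had the interval farthest from 0, at 0.83 (0.41 to 1.24), beside 0.58 in other cells, where it was scarcely detected.

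**Figure D4:**
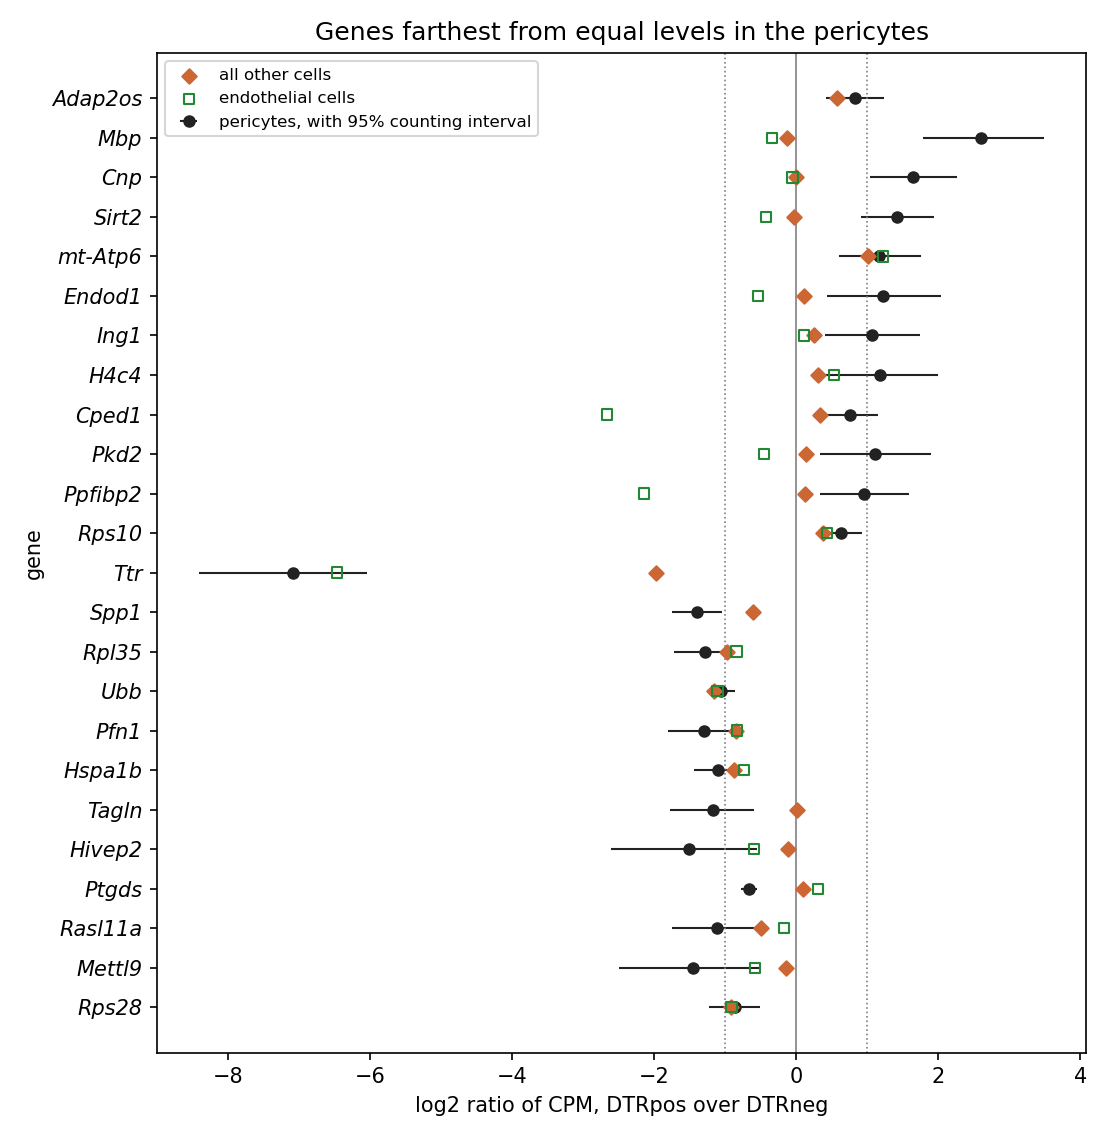
Log2 ratio of CPM, DTRpos over DTRneg, for the 12 genes higher and the 12 lower whose counting intervals lie farthest from 0 in the pericytes (black, with 95% counting interval), beside the ratio in all other cells (diamonds) and in endothelial cells (squares, absent where a library has 0 UMIs). Ubb, Rpl35, Pfn1, Rps28, Hspa1b and mt-Atp6 lie near the other cells, whereas Mbp, Cnp, Sirt2 and Tagln lie apart from them.

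Contractile genes differed by whether all pericytes or a few express them. Of 22 genes, 10 were compared, 4 above 0 and 6 below with 2 past 2-fold lower, and the median ratio was -0.26, beside 0.05 over all genes. Among all genes compared, 893 of 2003 were below 0 and 1.1% were past 2-fold lower. Acta2 was at 377 and 52.2 CPM, in 18 and 6 cells, with a ratio of -2.85 (-3.69 to -2.11), and Tagln at 234 and 104 CPM, in 24 and 12 cells, with -1.17 (-1.78 to -0.59). The contractile set made up 7.73 and 2.96% of the pericytes, and without it the median was 0.14. Acta2, at 1.88, and Tagln, at 0.56, then lay on the other side of 0, from few UMIs. UMIs of Acta2, Tagln and Myh11 had chosen that set, so the values without it are a description. The other contractile genes, detected in more of the pericytes, lay closer to 0. Myl9, the regulatory light chain of smooth muscle myosin, was at 2186 and 2286 CPM with a UMI in 98.1% and 91.1% and a ratio of 0.06 (-0.08 to 0.20). Myl6, the essential light chain, had a UMI in 88.9% and 92.3% and a ratio of 0.21 (0.05 to 0.38). Mylk, the kinase of the regulatory chain, was in 45.9% and 43.8% with 0.17 (-0.22 to 0.55), and filamin A (Flna) in 29.5% and 24.9% with 0.16 (-0.35 to 0.66). The tropomyosins Tpm1 and Tpm2 had -0.28 (-0.57 to 0.00) and -0.36 (-0.86 to 0.12). Crip1, a LIM domain protein, was the third gene of the list with an interval below 0, at -0.24 (-0.46 to -0.02), and it was at 0.19 without the contractile set.

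Receptors and enzymes that set vessel tone leaned to DTRpos, each by little. Of 13 genes compared 12 were above 0, beside 55.4% of all genes, and 0 were past 2-fold. The median was 0.30 and the summed list was at 0.17 (0.08 to 0.26). The lean was not particular to the pericytes. The sum was at 0.26 (0.24 to 0.29) in all other cells, 0.07 (0.03 to 0.11) in oligodendrocytes and 0.09 (-0.10 to 0.27) in endothelial cells. In each of these, 0 of the 13 genes reached 100 CPM. The nitric oxide receptor of vascular cells is a pair of soluble guanylate cyclase subunits, and Gucy1b1 was at 684 and 871 CPM with a ratio of 0.35 (0.11 to 0.59) and Gucy1a1 at 477 and 496 CPM with 0.06 (-0.25 to 0.36). Downstream of it the cyclic GMP phosphodiesterase Pde5a had 0.39 (-0.04 to 0.81) and the kinase Prkg1 0.60 (-0.08 to 1.29). Ednra, the endothelin A receptor, had 0.18 (-0.28 to 0.64), Adora2a, an adenosine receptor, 0.41 (-0.22 to 1.04), and Tbxa2r 0.30 (-0.07 to 0.67). Gucy1b1 alone of the 13 had an interval that excluded 0. In the 106 and 84 cells without 3 markers of any other class the median was 0.02.

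Growth factor and Notch signalling showed its receptors level and some targets lower. The list of 47 genes had 15 compared, 7 above 0 and 8 below with 0 past 2-fold, and a median of -0.10. Pdgfrb had a ratio of 0.19 (-0.00 to 0.38), Notch3 of 0.09 (-0.24 to 0.43), Notch1 of -0.11 (-0.58 to 0.34) and S1pr3, a sphingosine 1-phosphate receptor, of 0.26 (-0.08 to 0.60). The Notch ligand Jag1 was at 113 and 88 CPM with -0.36 (-1.08 to 0.33). Hes1, a target of Notch signalling, was at 651 and 378 CPM with -0.78 (-1.10 to -0.47), and its ratio was -0.61 in all other cells and -0.80 in endothelial cells. Heyl, a Notch target of mural cells, did not follow it, at -0.14 (-0.60 to 0.30). Id3, a target of BMP signalling, had -0.34 (-0.63 to -0.04), beside -0.39 in endothelial cells, and Id1 -0.10 (-0.77 to 0.55).

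Basement membrane and matrix genes were level on the whole. Of 24 compared, 13 were above 0 and 11 below with 0 past 2-fold, and the median was 0.05. The collagen IV chains Col4a1 and Col4a2 had -0.02 (-0.26 to 0.23) and 0.22 (-0.18 to 0.62), the laminin chains Lamc1 and Lama4 -0.06 (-0.44 to 0.31) and 0.23 (-0.30 to 0.74), and nidogen (Nid1) 0.05 (-0.30 to 0.40). Below 0 stood Serpinh1, the collagen chaperone HSP47, at 567 and 329 CPM with -0.78 (-1.13 to -0.45), and Timp3, a protease inhibitor, at 425 and 306 CPM with -0.47 (-0.84 to -0.11). Igfbp7, a secreted protein that binds insulin-like growth factor, was at 4389 and 3593 CPM with -0.29 (-0.40 to -0.18).

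Transporters were mixed. Of 13 compared, 8 were above 0, 5 below and 0 past 2-fold, with a median of 0.05. Slc38a11, an amino acid transporter, was at 282 and 430.4 CPM with a ratio of 0.61 (0.25 to 0.96), Slc30a10, a manganese exporter, at 308 and 408 CPM with 0.41 (0.05 to 0.76) and Slc22a8, an organic anion transporter, at 284 and 375 CPM with 0.40 (0.03 to 0.77). The folate carrier Slc19a1 was level, at 0.05 (-0.21 to 0.31). Slc1a3, the glutamate transporter of astrocytes, was at 188 and 114 CPM with -0.72 (-1.33 to -0.14), against 370.3 and 454 CPM in all other cells. Slc6a13, a GABA and taurine transporter of fibroblasts, had -0.45 (-0.86 to -0.05), and 0.65 without the cells holding 3 fibroblast genes. Pericyte identity genes, 26 compared, had 17 above 0 and 9 below and a median of 0.07.

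**Figure D5:**
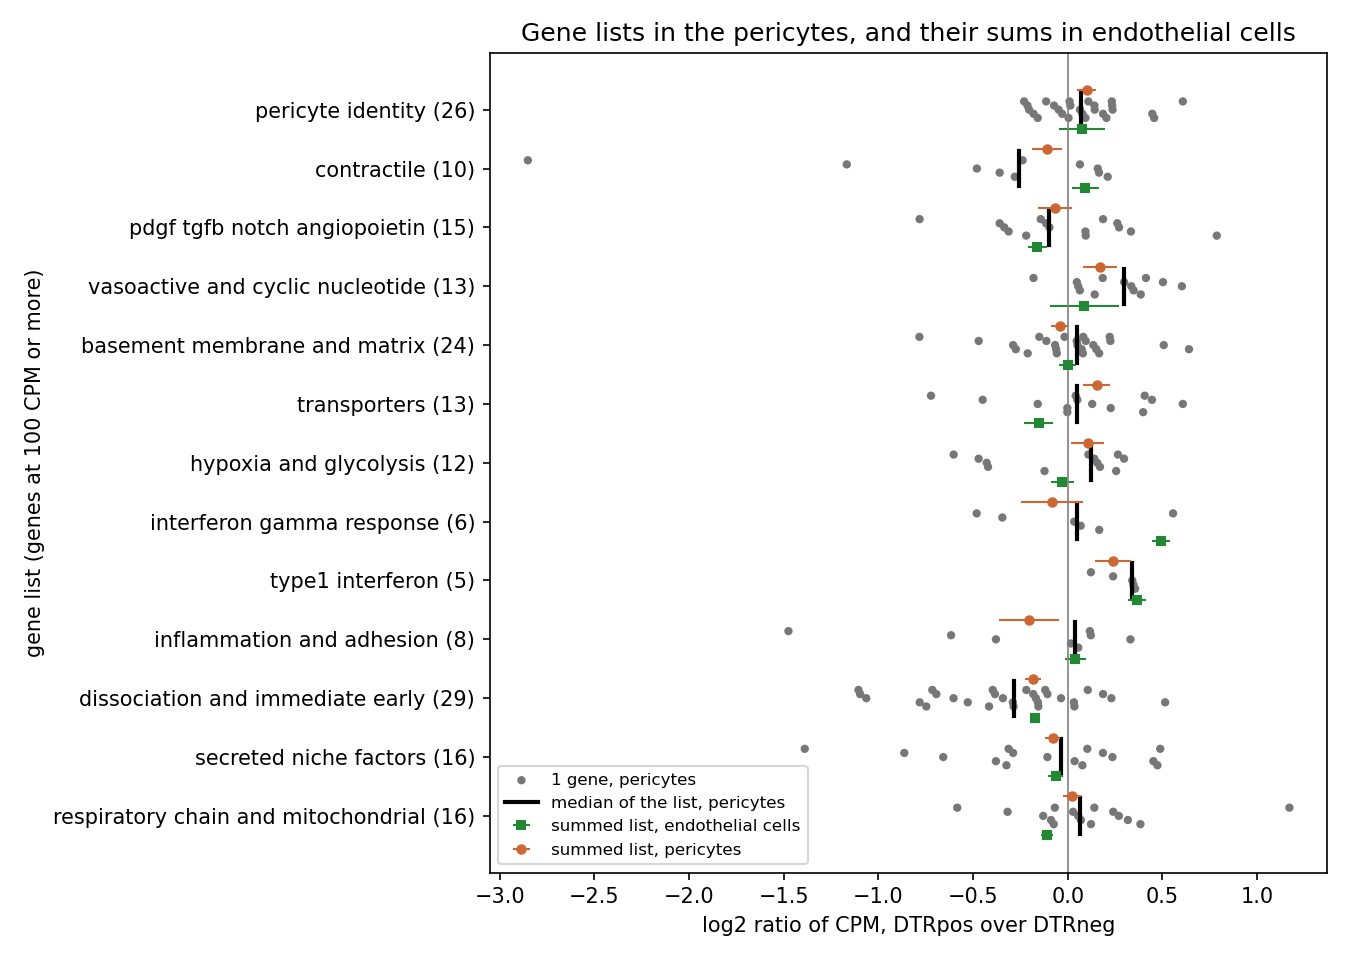
Log2 ratio of CPM, DTRpos over DTRneg, for each gene at 100 CPM or more in the pericytes (grey points) with the median (black line), by list. The lists of cycling genes, selecting genes and markers of other classes are not drawn. Circles give the ratio of the summed list in the pericytes and squares that in the endothelial cells, each with its 95% counting interval. The interferon gamma list sits at -0.08 in the pericytes and 0.49 in the endothelial cells, and the dissociation list lies below 0 in both.

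Interferon gamma response genes, which hold antigen presentation, were low in pericytes, and 6 of 49 reached 100 CPM. None was past 2-fold. Of the 6, 4 were above 0, with a median of 0.05, and the summed list of 49 genes was at -0.08 (-0.25 to 0.08). In the endothelial cells of the same libraries the sum was at 0.49 (0.45 to 0.54). B2m, the light chain of MHC class I, was at 211 and 166 CPM in the pericytes with a ratio of -0.35 (-0.86 to 0.15) and at 980.0 and 1614 CPM in endothelial cells with 0.72. The class I heavy chain H2-D1 had -0.48 (-0.96 to -0.02) in pericytes and 0.14 in endothelial cells, and H2-K1 0.07 (-0.57 to 0.70) and 0.43. Reads of H2 genes can be split among near copies. With 1 library a group the difference between the 2 cell types was not tested.

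Type I interferon genes stood above 0 together in the pericytes. All 5 compared of 31 did, beside 55.4% of all genes, with 0 past 2-fold and a median of 0.34. The sum was at 0.24 (0.14 to 0.33) beside 0.36 (0.32 to 0.41) in endothelial cells. It was also above 0 in all other cells, at 0.16 (0.13 to 0.18), in oligodendrocytes, at 0.10 (0.06 to 0.14), and in fibroblasts, at 0.20 (0.01 to 0.39). In the fibroblasts the same 5 genes had a median of -0.10, with 3 below 0. The antiviral membrane proteins Ifitm1 and Ifitm3 were at 1295 and 1647 CPM and 1251 and 1601 CPM with ratios of 0.35 (0.17 to 0.52) and 0.36 (0.18 to 0.53). The induced genes Isg15, Bst2 and Ifi35, below 100 CPM, lay on both sides of 0 with wide intervals that held 0. Isg15 was at 94.1 and 68.5 CPM with -0.46 (-1.28 to 0.32), Bst2 at 54.4 and 32.6 CPM with -0.74 (-1.95 to 0.36) and Ifi35 at 39.7 and 65.2 CPM with 0.71 (-0.27 to 1.70). The list of inflammation and adhesion had 8 compared, 5 above 0 and 3 below. The neutrophil chemokine Cxcl1 was past 2-fold, at 218 and 78.3 CPM with -1.48 (-2.18 to -0.82), from 19 and 10 cells, and 5 cells held 72.1% of its UMIs in DTRneg. Il34, a ligand of the macrophage growth factor receptor, was level, at 0.02 (-0.37 to 0.39). The complement inhibitor Serping1 had -0.62 (-1.22 to -0.04).

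Dissociation and immediate early genes leaned to DTRneg. Of 29 compared, 23 were below 0 and 6 above, 3 were past 2-fold lower (Hspa1b, Socs3 and Klf6), and the median was -0.29. Over all genes compared, 893 of 2003 were below 0, 1.1% were past 2-fold lower and the median was 0.05. The 28 of these genes that could be compared in endothelial cells had a median of -0.20 there with 24 below 0, and the 16 that could be compared in all other cells had -0.11 with 11 below 0. The fibroblasts went the other way, with a median of 0.61 over the 29 genes, 5 of them below 0, and a summed list at 0.57 (0.49 to 0.65), beside -0.18 (-0.22 to -0.14) in the pericytes. Jund was at 2657 and 1842 CPM with -0.53 (-0.67 to -0.38), Dusp1, a phosphatase of MAP kinases, at 613 and 365 CPM with -0.75 (-1.07 to -0.43), Btg2 at 679.9 and 414 CPM with -0.72 (-1.02 to -0.42) and Cebpb at 280.3 and 163 CPM with -0.78 (-1.28 to -0.30). Fos and Jun lay near 0, at -0.15 (-0.26 to -0.05) and -0.12 (-0.24 to 0.00), and Fosb above it, at 0.51 (0.28 to 0.75). The heat shock genes Hspa1a and Hspa1b, near copies whose reads are uncertain, had -0.34 (-0.51 to -0.18) and -1.11 (-1.44 to -0.78). Cell by cell, the list took a median of 1.42% of UMIs in DTRneg and 1.38% in DTRpos, with quartiles of 0.702% and 3.65% and of 0.625% and 2.79%. The medians were close, and the upper quartile was the lower one in DTRpos. How much of any ratio above goes with this list was not tested.

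Secreted factors of the vascular niche had 16 of 39 genes compared, 8 on each side of 0. Ptn, the growth factor pleiotrophin, was the most abundant, at 10978 and 12488 CPM in 98.1% and 100% of pericytes, with a ratio of 0.19 (0.13 to 0.25). Apoe had 0.45 (0.30 to 0.60), beside 0.57 in all other cells, and Bmp4 0.47 (-0.11 to 1.06). Spp1, osteopontin, was past 2-fold, at 726 and 277 CPM with -1.39 (-1.75 to -1.04). It came from 27 and 22 cells, and 5 of them held 66.6% and 52.9% of its UMIs. The DTRneg cell with the most, 99 UMIs, had 8 fibroblast genes, 0 Rgs5 and 46 Vtn UMIs. Without the cells holding 3 fibroblast genes Spp1 was at 0.17. Ptgds, prostaglandin D synthase, was at 4587 and 2908 CPM with -0.66 (-0.77 to -0.54), and a DTRneg cell with 10 fibroblast genes and 0 Rgs5 held 838 of its 2193 UMIs. Without the cells holding 3 fibroblast genes Ptgds was at 0.36, and Dcn, at -0.35 (-0.63 to -0.06) over all pericytes, was at 0.56. For these 3 genes the direction turned without those cells. Fibroblast genes chose the cells left out, and Dcn marks fibroblasts, so this is a description made after seeing the data.

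Energy genes were level. Of 16 respiratory chain genes 10 were above 0, with a median of 0.06, and 1 was past 2-fold, mt-Atp6. Cox4i1 had 0.38 (0.18 to 0.59) and Cox4i2 0.11 (-0.07 to 0.29), while Cox7c had -0.58 (-0.88 to -0.29). Of 12 hypoxia and glycolysis genes 7 were above 0 with 0 past 2-fold and a median of 0.12. Gapdh had 0.27 (0.05 to 0.48), Ldha, lactate dehydrogenase A, -0.43 (-0.85 to -0.01), and Epas1, the hypoxia-inducible factor of vascular cells, 0.17 (-0.16 to 0.50). Cycling genes were scarce. Mki67 had 5 UMIs in 2 DTRneg pericytes and 0 in DTRpos, and 2 and 0 pericytes had 3 or more of the 10 cycling genes.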

How the data were processed

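Cells of the hippocampus were measured in 2 droplet libraries with a 3' kit, per the labels' protocols. The deposited matrices list, for each barcode, the UMI count of each gene before any normalization, as the authors obtained it with Cell Ranger 6.1.0, per the file headers, on build mm10, per the submitters' processing notes. The annotation release is not given in the sources used here. Of 55487 gene IDs, 55141 matched GENCODE M21 of GRCm38, and IDs that share a symbol (114 symbols) were summed. UMIs were summed over the pericytes of each library and divided by their total (CPM). The log2 ratio carries an exact conditional binomial interval, a level an exact Poisson interval and a share an exact Clopper-Pearson interval, all covering counting error only, at 95%. A gene counted as past 2-fold at a log2 ratio over 1 in size and 100 CPM in the higher library. The selecting and excluded genes were left out of every other list. The comparison was tested on simulated data. Python 3.11.15, SciPy 1.17.1 and Scanpy 1.11.5 (Scrublet) were used.

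The members, the gene lists and the rules were chosen with earlier results of these data known. Genes named in the text are the 20 with the largest excess over other cells in both libraries at 100 CPM, the 12 higher and 12 lower by the nearer bound of the interval with a UMI in at least 10% of the cells of the higher library, up to 8 of each list by UMIs with any past 2-fold, and the selecting, excluded and related genes. Other list genes (among them Cspg4, Adora2a, Prkg1, Jag1, Id1, Serpinh1, Timp3, Cox7c and Fosb), S100b, Flna, Sparcl1, Slc1a2, Gja1 and Gfap were named after their values were seen. Some genes that the rules name are not reported here. The meningeal samples of the series were not used here. Alternatives covered doublets, gene and UMI limits of the rule, equal weights of cells, depth, scaling, gene filters and leaving out cells with markers of other classes or rich in 1 gene or list.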

Additional observations from a re-analysis of the deposited data

Results flagged for a closer look

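Gene lists whose summed log2 ratio, DTRpos over DTRneg, lay on opposite sides of 0 in the pericytes and in the endothelial cells of the same libraries, counting intervals included, are given here. The difference between the 2 cell types was not tested, since each group is 1 library. The contractile list summed to -0.11 (-0.19 to -0.03) in the pericytes and to 0.09 (0.02 to 0.16) in the endothelial cells. Without the 1 DTRneg cell richest in the list, which held 162 of its UMIs, the pericyte sum was -0.05 (-0.13 to 0.03), and without the contractile set it was 0.16 (0.07 to 0.25), on the same side as the endothelial cells. The transporter list summed to 0.15 (0.08 to 0.22) in the pericytes and to -0.15 (-0.23 to -0.08) in the endothelial cells. The cycling list summed to -0.56 (-0.98 to -0.15) in the pericytes, from 163 and 71 UMIs, and to 0.50 (0.24 to 0.76) in the endothelial cells. A single DTRneg cell held 58 of the 163 UMIs. Without it the pericyte sum was 0.05 (-0.40 to 0.50), from 105 and 71 UMIs, and no longer lay on the other side. The list of fibroblast markers summed to -0.15 (-0.27 to -0.04) in the pericytes and to 1.02 (0.80 to 1.24) in the endothelial cells. Without the 1 DTRneg cell richest in it the pericyte sum was -0.06 (-0.18 to 0.06), and without the cells holding 3 of its genes 0.08 (-0.10 to 0.26). Of the 8 fibroblast markers compared in the pericytes, just Mgp reached 100 CPM in the endothelial cells. Mgp was above 0 in both, at 0.09 in the pericytes and 1.30 in the endothelial cells. Of the compared contractile, transporter and cycling genes, 3, 4 and 1 reached that level in the endothelial cells. The transporter sum was 0.16 (0.09 to 0.23) without the cell richest in that list. These sums without cells were chosen after seeing the data. The cells left out were themselves chosen by genes of the same lists, so the sums are a description.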

How the results depend on the processing

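No paired analysis was possible because each group is 1 library and the hippocampal labels carry no replicate number. The log2 ratio of the pericyte share was -0.80 with at least 1000 genes and -1.04 with cells thinned to 2000 UMIs, and stayed within its counting error under the other 4 settings. The counts past 2-fold, 10 higher, 22 lower and 32 in all, became 63, 42 and 105 with at least 1000 genes, 60, 74 and 134 with pericytes thinned to 1000 UMIs, 70, 65 and 135 without cells holding 3 markers of any 1 other class, 4, 10 and 14 at a filter of 200 CPM, and 1163, 1019 and 2182 with no filter but 1 UMI in each library, with fewer UMIs or other genes behind each. With at least 4 selecting genes 21 were higher. Without cells holding 3 fibroblast genes 31 were higher and 63 were past in all, and without the contractile, fibroblast and choroid cells together 29 and 59 (both chosen after seeing the data). The vasoactive median was 0.016 without cells holding 3 markers of any 1 other class and 0.054 without the 3 sets of cells together. The contractile median, -0.26, ranged from -0.77 without cells holding 3 markers of any 1 other class to 0.14 without the contractile cells, the interferon gamma median, 0.05, from -0.35 at 200 CPM to 0.08, and the secreted factor median, -0.04, from -0.29 at 200 CPM to 0.20, so these 3 medians turned sign. Of the other 9, the type I interferon, dissociation and respiratory chain medians kept their sign under every alternative, and 6 turned, between -0.23 and 0.23. Single genes turned as follows, and where no set of cells is named the cause was not tested. Without doublets Ptprz1 was at -0.88. With at least 1000 genes Apod was at 0.14 and Dcn at 0.067. With at least 4 selecting genes Ptgds was at 0.42, Slc6a13 at 0.085, Dcn at 0.022 and Sox11 at -0.071. With 0 UMIs of the excluded genes Sirt2 was at -0.0048 and Ptprz1 at -0.11. Thinned to 1000 UMIs, Slc6a13 was at 0.17 and Fos at 0.0059. Without the contractile cells Tagln was at 0.56, Crip1 at 0.19 and Acta2 at 1.88. Without cells holding 3 markers of any 1 other class Spp1 was at 0.76, Ptgds at 0.36, Slc6a13 at 1.12 and Dcn at 0.62. Without the fibroblast set Spp1 was at 0.17, Ptgds at 0.36, Slc6a13 at 0.65 and Dcn at 0.56. Without the 3 sets together Spp1 was at 0.075, Tagln at 0.049, Ptgds at 0.46, Crip1 at 0.094, Acta2 at 2.63, Slc6a13 at 0.55 and Dcn at 0.46. Contractile, fibroblast and choroid genes chose these sets, so the values of such genes without them are a description. Without the 1 cell richest in the gene (chosen after seeing the data) Ptgds was at 0.018, Ptprz1 at -0.21 and Sox11 at -1.25. Without the 5 cells richest in the gene Sirt2 was at -0.020 and Ptgds at 0.21. The 306688 UMIs in DTRpos limit the precision of genes near 100 CPM.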
